A study of Peromyscus polionotus with 11 samples.

Results

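The probe sets for synaptic vesicle and SNARE proteins were followed through 2 forebrain nuclei and 2 day lengths in the oldfield mouse, Peromyscus polionotus. They were taken by gene symbol: every probe set with a single symbol beginning Stx, Syt, Vamp, Snap, Stxbp, Syn or Cplx followed by a number and an optional letter, and those of Sv2a, Sv2b, Sv2c, Syp, Nsf and the Rab3 genes. The rule found 108 probe sets for 56 genes, among 20380 probe sets (12393 genes) with 1 symbol and 22626 tested in all. Total RNA of brain micropunches, biotin-labelled, was measured on 11 arrays whose probe sets were designed for the house mouse. Medial preoptic area, a hypothalamic region for parental and sexual behaviour, came from long days (3 samples, numbered 1 to 3) and short days (3 samples, 4 to 6). The bed nucleus of the stria terminalis, which links amygdala and hypothalamus, came from long days (3 samples, 1 to 3) and short days (2 samples, 4 and 5). No treatment other than day length is named, and strain, sex, age and the hours of light per day are unstated in the labels. The design text calls the samples independent without saying whether one is 1 animal or a pool, and samples of both nuclei may share animals, so p-values measure only the spread between these samples.

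Neurons release transmitter when a synaptic vesicle fuses with the plasma membrane at the nerve terminal. A SNARE protein on the vesicle (synaptobrevin, from the Vamp genes) zips together with SNAREs on the plasma membrane (syntaxin from Stx1a, and Snap25), while complexins bind the assembling complex and synaptotagmins couple fusion to calcium. Nsf takes spent complexes apart, synapsins tether the reserve vesicles, and Rab3 proteins guide vesicles to release sites. Other syntaxins and Vamp proteins serve traffic between internal membranes in every cell, and Snap91, which the rule takes by its symbol, is a clathrin adaptor of vesicle retrieval and not a SNARE.

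Values are normalised intensities in linear units, and the median of every array was 19. Of the 108 probe sets, 57 (39 genes) lay above the median of all probe sets in mean log2 intensity and 51 lay below it. Probe sets at such low values carry little signal above the rest of the array. A group of 6 probe sets had mean intensities over 500: those of Snap25, Vamp2 and Snap91 (1 each), Stx1a (1) and Cplx1 (2). Levels of different probe sets were not ranked, because house mouse probes can match oldfield mouse transcripts unequally. A change is given as a log2 difference with its standard error from limma, and a probe set is said to pass when its Benjamini-Hochberg p, computed over all 22626 probe sets at once, was under 0.05.

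Marker genes describe the punches, but their lists were chosen with earlier results of these data known, so they are no independent check. Of 12 hypothalamic and preoptic marker genes 10 had the lower level in the bed nucleus (5 passed lower, and Otp passed higher). Striatal projection neuron markers were higher there in 7 of 8 genes (6 passed), and general neuronal markers were lower in 8 of 11 (0 passed, median log2 difference -0.19). All 7 oligodendrocyte markers measured had the higher level in the bed nucleus (0 passed, median 0.30), as had 5 of 5 markers of ependyma and choroid plexus (0 passed, median 0.12). The counts include dim probe sets below the array median, such as Dlg4, Eno2, Thy1 and Uchl1 (neurons), Cldn11 and Mag (oligodendrocytes) and Foxj1 (ependyma). The ependymal excess lay in long days. The mean log2 level of that list was 4.65 to 4.88 on the long-day bed nucleus arrays and 4.36 to 4.43 on the long-day preoptic arrays. In short days it was 4.27 to 4.51 in the bed nucleus and 4.42 to 4.54 in the preoptic area. Mean log2 levels of the neuronal list ran from 5.70 to 5.86 on the preoptic arrays, 5.59 to 5.86 on the long-day bed nucleus arrays and 5.46 to 5.56 on the short-day bed nucleus arrays. On the first principal component of all probe sets (23.2% of the variance) the preoptic short-day array 6 stood apart, at -31.2. On the opposite side lay the bed nucleus long-day arrays 1 and 2, at 25.4 and 19.3. The remaining arrays ran from -6.63 to 7.57. In bulk tissue, fewer cells of a type and less RNA per cell cannot be told apart.

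In the release machinery 2 genes had probe sets that passed between the nuclei, all lower in the bed nucleus. These genes were Stx1a, the neuronal plasma membrane syntaxin, and Cplx1, the complexin of fast release. Of the 108 probe sets 3 passed for bed nucleus minus preoptic area averaged over day lengths, all lower and none higher. That is 2.78%, where 1.03% of all probe sets passed. Each gene also had a dimmer probe set near 0 (-0.03 for Stx1a, -0.08 for Cplx1). Without the bed nucleus short-day array 5 none of the 3 passed. The other plasma membrane and vesicle SNAREs, the synaptotagmins and the vesicle proteins gave no probe set that passed.

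Stx1a (probe set 1437390_x_at) read 669, 1433 and 692 on the long-day preoptic arrays 1 to 3 and 842, 1167 and 945 on the short-day preoptic arrays 4 to 6. On the bed nucleus arrays it read 535, 482 and 672 in long days and 451 and 387 in short days. The preoptic arrays were higher than the bed nucleus arrays except at the border, where long-day array 3 of the bed nucleus lay just above the lowest preoptic array. The group means were 931 ± 435 (SD, n = 3) and 985 ± 166 (n = 3) in the preoptic area, against 563 ± 98 (n = 3) and 419 ± 45.3 (n = 2) in the bed nucleus. The log2 difference was -0.93 ± 0.16 (SE, adjusted p = 0.00514, limma). Without the preoptic long-day array 2, which gave the highest reading, it was -0.76 (adjusted p = 0.0052, limma), and without the bed nucleus short-day array 5 it was -0.88 and no longer passed (adjusted p = 0.067, limma).

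The second Stx1a probe set, 1448366_at, did not share this pattern. It read 35, 33 and 30 and then 36, 36 and 33 on the preoptic arrays, and 33, 32 and 34 and then 27 and 41 on the bed nucleus arrays. The nuclei overlapped fully, and the log2 difference was -0.03 with a 95% interval of -0.25 to 0.20. The name of the probe set that passed ends in x_at, which on this array design marks possible cross-matching with other transcripts.

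Cplx1 was measured by 3 probe sets, and the 2 bright ones moved together. The probe set 1417746_at read 1215, 1424 and 1276 on the long-day and 1451, 1738 and 1571 on the short-day preoptic arrays. It read 671, 1283 and 1021 on the long-day and 1161 and 779 on the short-day bed nucleus arrays. Only the bed nucleus array 2 of long days reached into the preoptic range. The log2 difference was -0.59 ± 0.14 (adjusted p = 0.0493, limma).

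The probe set 1448832_a_at gave 1451, 1896 and 1495 and then 1774, 1899 and 1697 in the preoptic area. In the bed nucleus it gave 944, 1545 and 1263 and then 1351 and 871. As for the first probe set, bed nucleus arrays 1 and 5 were lowest and array 2 was highest, within the preoptic range. The log2 difference was -0.55 ± 0.13 (adjusted p = 0.0499, limma), as close to the threshold as that of the first. Without the bed nucleus short-day array 5 these 2 values were -0.44 and -0.40 and neither passed (adjusted p = 0.285 and 0.296, limma). Both calls were lost with any 1 of 9 of the 11 arrays left out, and were kept only without bed nucleus array 2 or 4. The third probe set, 1417747_at, read between 23 and 43 on all arrays and gave -0.08 ± 0.12. The other complexins were at 0.08 (Cplx2, 10 to 14 on all arrays), -0.07 (Cplx3) and -0.06 (Cplx4, a retinal complexin). Of the 6 complexin probe sets 5 were below 0, every Cplx1 probe set among them (83.3%, and 49.8% of all probe sets). The 95% intervals of all but the 2 bright Cplx1 probe sets held 0.

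**Figure D1:**
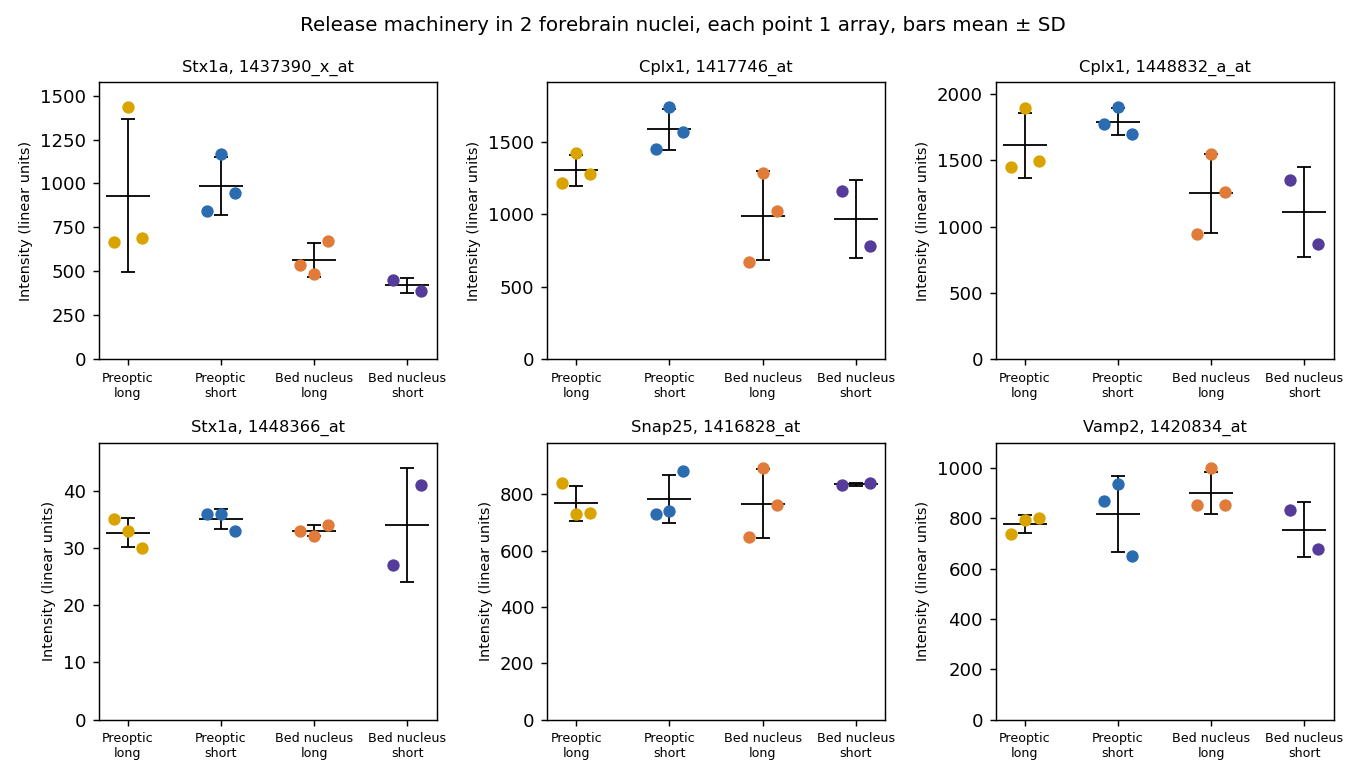
Normalised intensity (linear units, axis from 0) of 6 probe sets of the release machinery in the 4 groups. Each point is 1 array, and bars give the group mean and SD (3 arrays a group, 2 for short-day bed nucleus). In the first Stx1a panel and both Cplx1 panels the bed nucleus points lie lower and reach the preoptic range with 1 array each (for Stx1a 387 to 672 against 669 to 1433), while the second Stx1a probe set, Snap25 and Vamp2 overlap broadly.

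In the bed nucleus, 2 of 4 measured markers of glutamatergic neurons were lowest on the arrays where Cplx1 was lowest. Slc17a6, the vesicular glutamate transporter of hypothalamus and thalamus, read 48, 84 and 70 and then 88, 67 and 67 on the preoptic arrays. On the bed nucleus arrays it read 11, 136 and 63 in long days and 29 and 18 in short days. Bed nucleus arrays 1 and 5 were lowest and array 2 highest, as for both Cplx1 probe sets. Tbr1, a transcription factor of glutamatergic neurons, gave 10, 40 and 37 and then 26 and 22 on the bed nucleus arrays, against 37 to 83 in the preoptic area. The other 2 did not follow Cplx1: Neurod2 read 53, 50 and 48 and then 48 and 58 in the bed nucleus, and Neurod6 read 10, 11 and 13 and then 16 and 14. The Neurod6 readings lay below the array median of 19. On the short-day preoptic arrays Slc17a6 was highest on array 4, where Cplx1 in 1417746_at was lowest. Of the list of 6 thalamic or cortical glutamatergic markers 4 were measured. Their mean log2 level ran from 5.07 to 5.58 on the preoptic arrays, from 3.96 to 5.38 on the long-day and from 4.57 to 4.79 on the short-day bed nucleus arrays. For the nuclei, 3 of the 4 were lower in the bed nucleus and 0 passed (Slc17a6 -1.11, adjusted p = 0.218, limma), with Neurod2 at -0.07 and Neurod6 at 0.00. The part of these markers, and of the hypothalamic, striatal, neuronal, oligodendrocyte and ependymal markers above, in the Stx1a and Cplx1 results was not tested.

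The difference in Stx1a had the same sign at both day lengths. In short days the bed nucleus lay 1.22 ± 0.24 below the preoptic area on the log2 scale (-1.22, adjusted p = 0.0318, limma), and the groups did not overlap. In long days the value was -0.65 ± 0.22 and did not pass (adjusted p = 0.301, limma). With single arrays left out the long-day value ran from -0.84 to -0.29, the latter without the highest preoptic array. The test of the difference between the short-day and long-day values gave -0.58 ± 0.33 (adjusted p = 0.671, limma), so no change of the gap with day length was shown. For Cplx1 the long-day and short-day values were -0.44 and -0.73 for 1417746_at and -0.39 and -0.72 for 1448832_a_at, and none passed. In short days 1 of 108 member probe sets passed (0.354% of all probe sets did). In long days 0 passed with limma (0.128% of all did), and 10 members (9.26%) had an unadjusted p under 0.05, beside 10.5% of all probe sets. Without any 1 of the short-day arrays of either nucleus the short-day Stx1a call was lost (-1.33 to -1.09, adjusted p of 0.0528 to 0.323, limma).

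**Figure D2:**
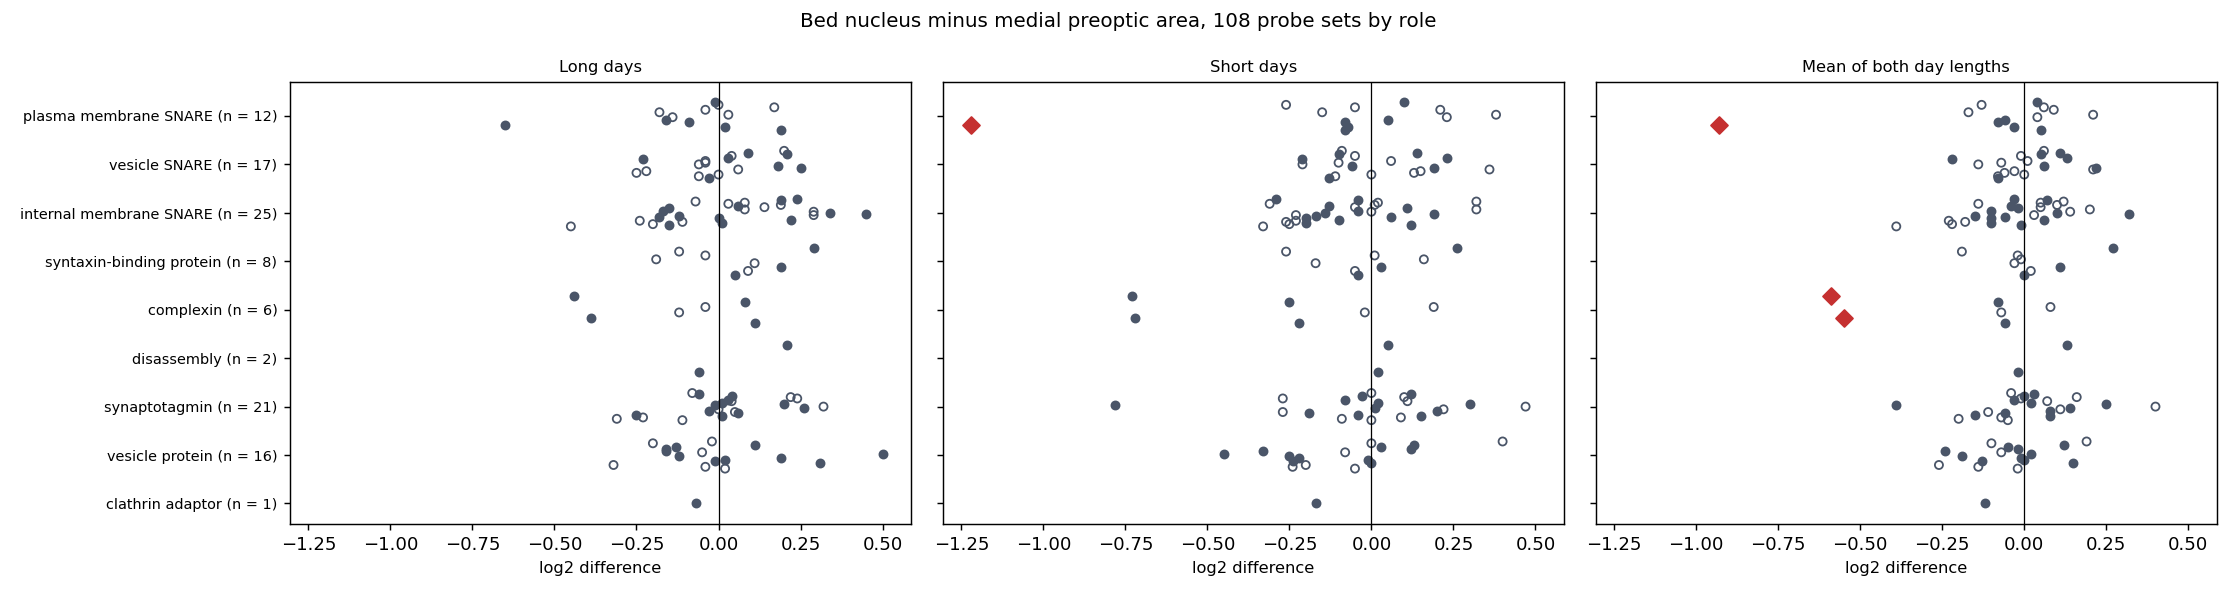
Log2 difference, bed nucleus minus medial preoptic area, of each of the 108 probe sets in rows by role, in long days, in short days and averaged. Filled points lie above the array median, open points below it, and red diamonds passed the threshold. Stx1a (-0.93 in the average) and 2 Cplx1 probe sets (-0.59 and -0.55) stand left of the other points, which lie between -0.39 and 0.40 there.

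The partners of Stx1a in the fusion complex gave small differences between the nuclei, with intervals around 0. Snap25 read 841, 729 and 735 and then 732, 740 and 882 in the preoptic area, and 648, 893 and 761 and then 832 and 839 in the bed nucleus. All groups overlapped, and the log2 difference was 0.04 with a 95% interval of -0.17 to 0.26. Vamp2, the main synaptobrevin of forebrain terminals, had a bright probe set (1420834_at) that read 649 to 937 in the preoptic area and 678 to 999 in the bed nucleus, a difference of 0.05 (interval -0.18 to 0.28). Its dimmer probe set gave 0.11 (interval -0.25 to 0.48).

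Vamp1, the synaptobrevin of hindbrain and motor neurons, was the only gene with a probe set whose nuclei did not overlap at all. Its probe set 1421863_at read 27 to 35 on the preoptic arrays and 24 to 26 on the bed nucleus arrays, at -0.22 ± 0.10 (adjusted p = 0.384, limma). The nuclei were separate in 1 of 108 members (0.926%) and in 1.47% of all probe sets. The further Vamp1 probe set went the other way (0.13). Among the 17 vesicle SNARE probe sets 9 were above and 8 below 0, with a median of 0.00. Vamp3, Vamp4, Vamp5, Vamp7 and Vamp8, which serve endosomes and secretion outside synapses, spanned -0.14 to 0.22. Of the plasma membrane syntaxins of other cells and compartments, Stx2, Stx3, Stx4a and Stx19 ranged from -0.13 to 0.21, and Snap23, the general relative of Snap25, from -0.17 to 0.09.

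Synaptotagmins gave 11 probe sets above and 10 below 0 between the nuclei, with a median of 0.00. Syt1, the main calcium sensor of forebrain release, was at 0.14 ± 0.11 and -0.01 ± 0.10 in its 2 probe sets, and Syt2, its hindbrain counterpart, was between -0.06 and 0.16 in 3. Syt6 had the largest positive value of all members, from 12 to 17 in the preoptic area to 17 to 24 in the bed nucleus (0.40 ± 0.12, adjusted p = 0.135, limma). Both ranges lie near the array median of 19, where a step of 1 unit is 0.07 on the log2 scale. Syt9, a calcium sensor of limbic neurons and secretory cells, read 54, 81 and 77 and then 100, 87 and 79 in the preoptic area, and 54, 97 and 63 and then 49 and 54 in the bed nucleus. Its short-day groups were apart (-0.78 ± 0.21, adjusted p = 0.128, limma) and its long-day groups were not (-0.01). Syt3 (0.00) and Syt5 (-0.03), further calcium-binding members, read 55 to 85 and 84 to 117 over all arrays with no gap between the nuclei. Syt7, a slow calcium sensor, was at 0.25 (14 to 24 against 21 to 23, adjusted p = 0.464, limma). The remaining genes of the family, Syt4, Syt8, Syt10, Syt11, Syt12, Syt13 and Syt17, ranged from -0.20 to 0.11.

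Of the 16 vesicle protein probe sets 11 were below 0 and 5 above (68.8% below, and 49.8% of all probe sets), with a median of -0.04 and quartiles of -0.13 and 0.01. With limma 0 passed, and 2 had an unadjusted p under 0.05. Sv2a, a vesicle glycoprotein, read 37 to 45 in the preoptic area and 29 to 37 in the bed nucleus (-0.24 ± 0.10, adjusted p = 0.315, limma). Syn1, synapsin I, read 18 to 23 against 14 to 19 (-0.26 ± 0.10, adjusted p = 0.277, limma). The nuclei touched at 1 value for Sv2a and overlapped for Syn1. Syp, synaptophysin, was at -0.19 and -0.14, and Syn2, synapsin II, at -0.01 and -0.02. The Rab3 genes ranged from -0.13 to 0.19 in 9 probe sets. Nsf, the ATPase that recycles SNAREs, was at 0.13 and -0.02, and Snap91 at -0.12 ± 0.10.

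The SNAREs of internal membranes held 25 probe sets, 11 above and 14 below 0. Stx6, a syntaxin of the trans-Golgi network, had the smallest p of them in a dim probe set (1460004_x_at) that read 13 to 16 in the preoptic area and 9 to 13 in the bed nucleus. Its difference of -0.39 ± 0.10 did not pass (adjusted p = 0.0651, limma), and its other 3 probe sets lay between -0.10 and 0.05. Stx18, of traffic between Golgi and endoplasmic reticulum, was higher in the bed nucleus in 1431295_a_at (46.2 ± 4.31 over 6 preoptic and 59 ± 7.65 over 5 bed nucleus arrays, 0.32 ± 0.10, adjusted p = 0.149, limma). The further 4 probe sets of Stx18 gave -0.06 to 0.10. The other SNAREs of Golgi, endosome and other internal membranes (Snap29, Snap47, Stx5a, Stx7, Stx8, Stx12 and Stx17) ranged from -0.23 (Stx12) to 0.20 (Stx17, 1427924_at). Syntaxin-binding proteins, measured here by Stxbp2, Stxbp3, Stxbp4 and Stxbp6, ranged from -0.19 to 0.27.

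As to precision, 96 of the 108 probe sets (88.9%) had a 95% interval for the difference between the nuclei that lay wholly between -0.5 and 0.5, against 92% of all probe sets. The median over the members was -0.02 and over all probe sets 0.00, with 55.6% and 49.8% below 0. An unadjusted p under 0.05 was found for 11 members (10.2%) and for 11.9% of all probe sets.

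Other genes of vesicle docking, priming, filling and recycling were read from a list of 70 genes, of which 51 had a probe set (96 in all). Averaged over day lengths 2 passed (2.08%, and 1.03% of all probe sets), both lower in the bed nucleus, and 0 passed higher. Cadps, a priming protein of dense-core vesicles, passed in 1448955_s_at. This probe set read 125, 115 and 111 and then 116, 136 and 136 in the preoptic area, and 70, 102 and 79 and then 97 and 69 in the bed nucleus. The nuclei did not overlap (-0.58 ± 0.12, adjusted p = 0.0172, limma). Ap2m1, a subunit of the clathrin adaptor AP-2, passed in 1450894_a_at. It fell from 143 ± 25.2 over 6 preoptic arrays to 97.6 ± 11.9 over 5 bed nucleus arrays (-0.56 ± 0.11, adjusted p = 0.0188, limma). In short days Ap2m1 passed (-0.81, adjusted p = 0.0405, limma), and so did Dnm1, the dynamin that pinches off recycled vesicles, in 1427754_a_at. These 2 were 2.08% of the list, beside 0.354% of all probe sets. That Dnm1 probe set read 69, 70 and 78 in the preoptic area and 43 and 45 in the bed nucleus (-0.72 ± 0.15, adjusted p = 0.044, limma), while its long-day value was -0.03. Bed nucleus arrays 1 and 5 gave the lowest Cadps readings, as for Cplx1, whereas Ap2m1 was lowest on short-day arrays 4 and 5. Without the bed nucleus short-day array 5 neither Cadps (-0.46, adjusted p = 0.15, limma) nor Ap2m1 (-0.50, adjusted p = 0.133, limma) passed. Cadps was also lost without bed nucleus array 1, and Ap2m1 without bed nucleus array 1 or preoptic arrays 2 or 5, while both short-day calls were lost without any 1 of 8 arrays. All of the list's 96 probe sets together had 59 below 0 (61.5%, and 49.8% of all probe sets) and a median of -0.04. Averaged over day lengths, 18 of them (18.8%) had an unadjusted p under 0.05, beside 11.9% of all probe sets.

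**Figure D3:**
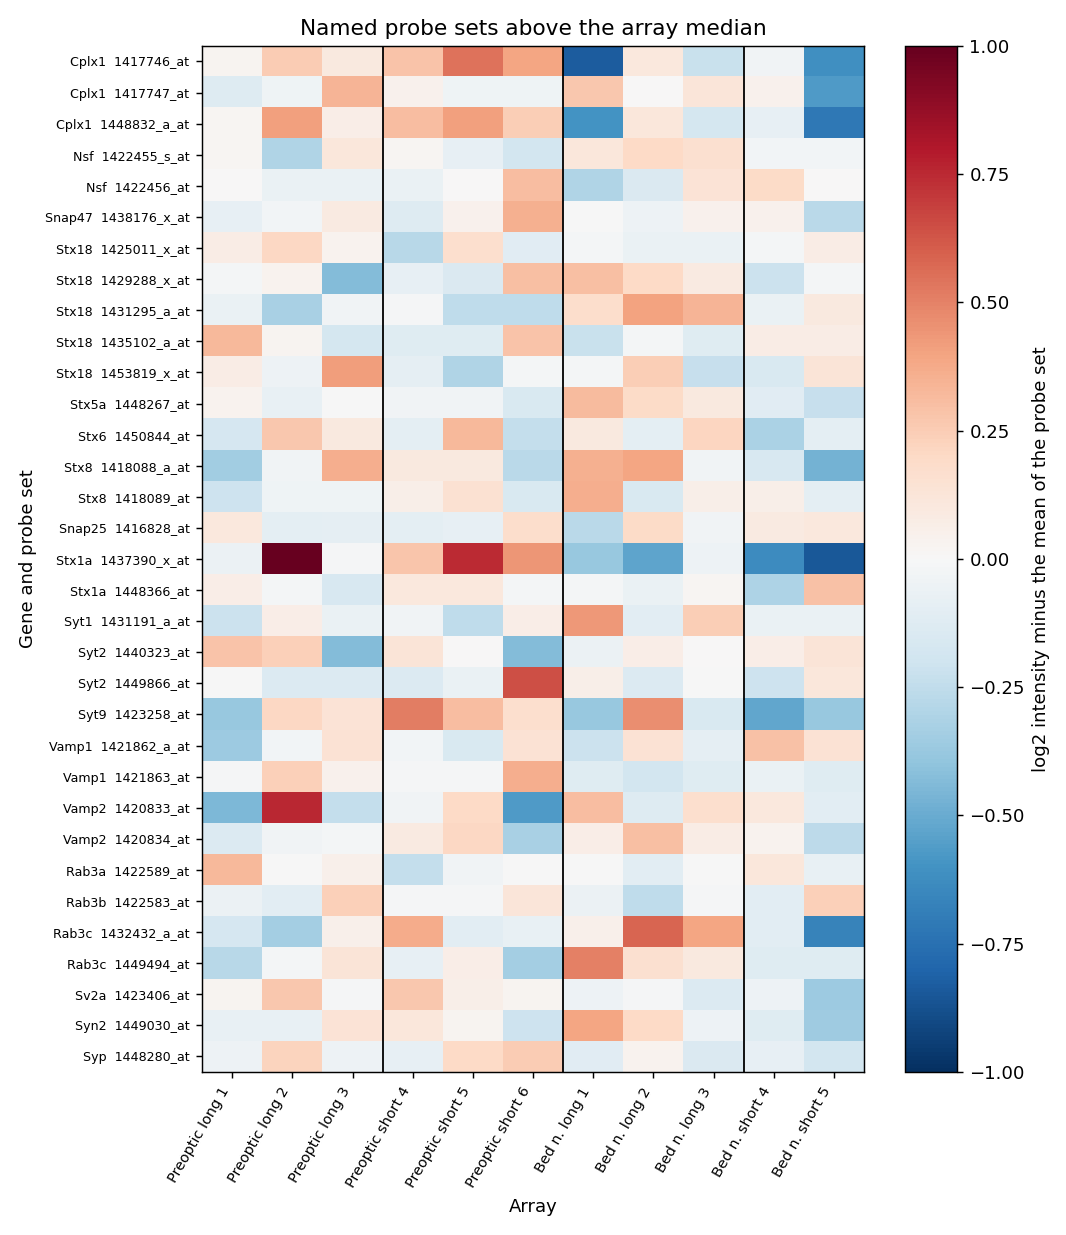
Log2 intensity minus the mean of the probe set, for the 33 named member probe sets above the array median (rows) on the 11 arrays (columns, lines between groups). Red is above and blue below the mean of the probe set, and the scale ends at -1 and 1. In the first Stx1a row and 2 of the 3 Cplx1 rows the preoptic arrays are mostly red and the bed nucleus arrays mostly blue. For Stx1a the preoptic long-day arrays 1 and 3 lie near the mean, and for Cplx1 bed nucleus array 2 lies above it. Most rows show no block of colour by nucleus or day length.

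Day length was the question of the study, and in the medial preoptic area no member passed. Of the 108 probe sets 0 passed with limma, as 0% of all probe sets did, and 1 (0.926%) had an unadjusted p under 0.05, beside 3.5% of all probe sets. That was the dim probe set 1460230_at of Syn2 (13, 12 and 18 on the long-day arrays, 18, 17 and 18 on the short-day arrays, 0.32 ± 0.14). The differences ran from -0.28 (Stx18, 1453819_x_at) to 0.34 (Syt9), with 59 above 0, 45 below 0 and 4 level. The 95% interval lay between -0.5 and 0.5 for 90 probe sets (83.3%, and 82.2% of all probe sets). Of the 96 probe sets of the related list 0 passed with limma, and 5 (5.21%) had an unadjusted p under 0.05.

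Among the core release genes of the preoptic area, Snap25 was at 0.03 ± 0.14 and the bright Vamp2 probe set at 0.05 ± 0.15. Stx1a was at 0.16 ± 0.22 and 0.10 ± 0.14. Syt9 had means of 70.7 ± 14.6 in long and 88.7 ± 10.6 in short days, with overlapping groups (0.34 ± 0.19). Stx7, a syntaxin of late endosomes, was at -0.25 ± 0.14, with overlapping groups. Of the 6 probe sets over 500, Cplx1 in 1417746_at was the one whose day length groups did not overlap: 1215 to 1424 in long against 1451 to 1738 in short days (0.28 ± 0.19). Its unadjusted p was 0.153, and the other bright Cplx1 probe set overlapped (0.16 ± 0.18). Groups were apart in 5 of 108 members (4.63%) and in 5.19% of all probe sets. The others were Vamp5 in 1430522_a_at (44 to 45 in long, 47 to 57 in short days) and Vamp7 in 1426269_at (11 to 12, then 13 to 14), both higher in short days, and Syt8 (50 to 57, then 43 to 48) and Vamp4 in 1434796_at, both lower.

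**Figure D4:**
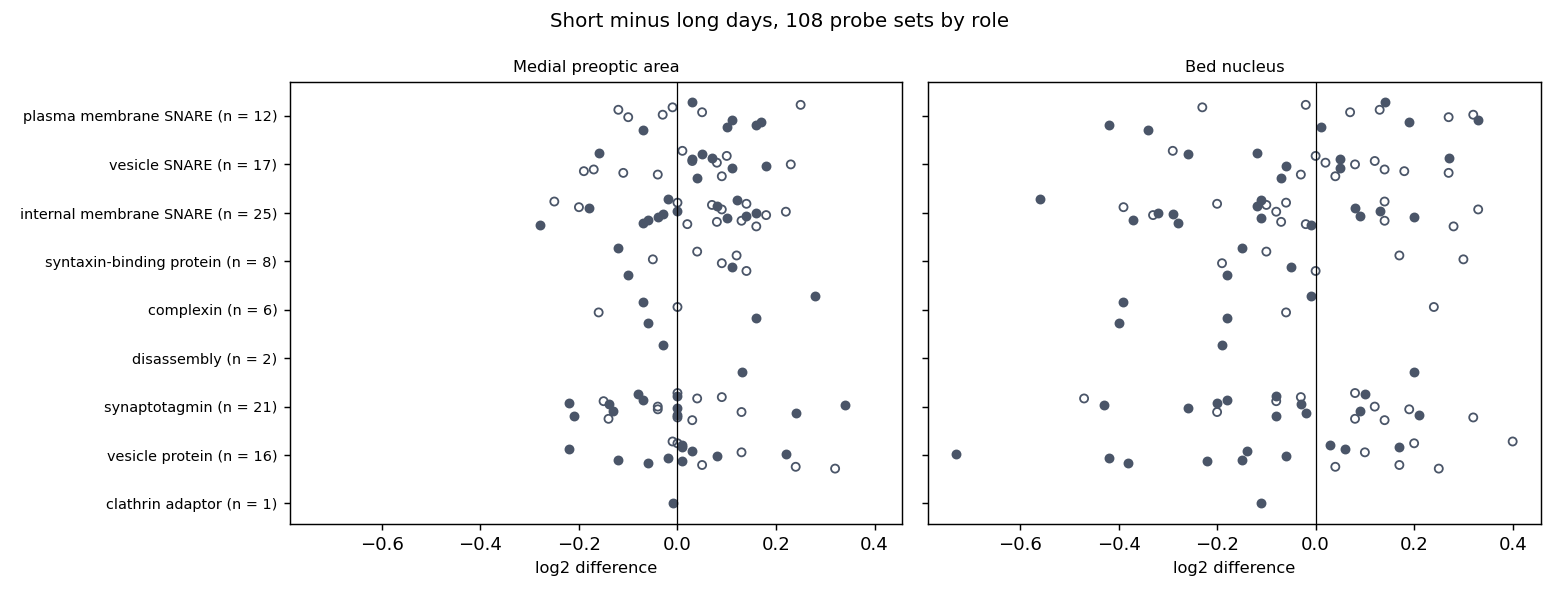
Log2 difference, short minus long days, of the 108 probe sets in rows by role, in the medial preoptic area and in the bed nucleus. Filled points lie above the array median and open points below it, and no point passed the threshold. The points run from -0.28 to 0.34 in the preoptic area and from -0.73 (Rab3c) to 0.40 in the bed nucleus.

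In the bed nucleus the differences were wider, and again 0 of 108 passed with limma (0.0442% of all probe sets did). An unadjusted p under 0.05 was found for 13 members (12%), beside 12.7% of all probe sets. Of the members 49 were above and 58 below 0. Among the 57 above the array median 39 were lower in short days (68.4%, median -0.11), where 60.6% of all 11313 probe sets above the median were lower (median -0.06). General neuronal markers were lower in 9 of 11 genes at the same time (median -0.23, 0 passed), and markers of ependyma and choroid plexus in 4 of 5 (median -0.46, 0 passed). The part of either list in these values was not tested.

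Rab3c, a vesicle Rab of neurons and endocrine cells, had the smallest p of the members. Its probe set 1432432_a_at read 51, 74 and 65 under long days and 46 and 31 under short days, with no overlap. The log2 difference was -0.73 ± 0.20 (adjusted p = 0.13, limma), and it was -1.01 without short-day array 4 and -0.44 without array 5. The probe set 1449494_at of Rab3c went the same way, with 122, 96 and 92 under long days and 79 on both short-day arrays (-0.38 ± 0.17, adjusted p = 0.347, limma). The third, at 9 to 13 on all arrays, gave 0.10. In the preoptic area the first 2 were at 0.22 and -0.06.

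Next in order of p were Syt1 in 1421990_at (13, 17 and 14 against 11 and 10, -0.47 ± 0.14, adjusted p = 0.177, limma) and Stx8, an endosomal syntaxin, in 1418088_a_at (94, 97 and 72 against 66 and 53, -0.56 ± 0.19, adjusted p = 0.236, limma). Snap47 in 1423745_at was at -0.39 ± 0.14, with intensities of 10 to 15. Stx5a, the Golgi syntaxin, read 51, 47 and 44 against 38 and 35 (-0.37 ± 0.13, adjusted p = 0.249, limma). Each of these had separate groups. The other probe sets of Stx8 (-0.11 and -0.02), Stx5a (-0.07) and Snap47 (-0.11) lay nearer 0. Groups did not overlap in 23 of 108 members (21.3%) and in 23.7% of all probe sets, so separate groups were about as common in the whole table as among the members.

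Of the core genes, Syn2 in 1449030_at read 79, 69 and 58 against 55 and 47 (-0.42 ± 0.16, adjusted p = 0.269, limma), while its dim probe set gave 0.25. Stx1a in 1437390_x_at was at -0.42 ± 0.24, Vamp2 in 1420834_at at -0.26 ± 0.16 and Syt1 in its brighter probe set at -0.26 ± 0.16. Cplx4 read 26, 25 and 29 against 17 and 24 (-0.40 ± 0.16), without overlap. Snap25 was at 0.14 (interval -0.19 to 0.46), Rab3a at 0.06 and Syp at -0.06. Cplx1 was at -0.01 and -0.18 in its bright probe sets and at -0.39 (interval -0.76 to -0.02) in 1417747_at. The highest values, at 0.32 to 0.40, were those of Rab3d in 1418890_a_at, Stx17 in 1427924_at, Stx19 and Syt13, all dim, and of Stx3 in 1425536_at (0.33). Only 59 of the 108 intervals (54.6%) lay between -0.5 and 0.5, close to the 55.1% of all probe sets. In the preoptic area 83.3% did. Of the 96 probe sets of the related list 0 passed with limma in the bed nucleus, and 14 (14.6%) had an unadjusted p under 0.05, beside 12.7% of all probe sets.

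**Figure D5:**
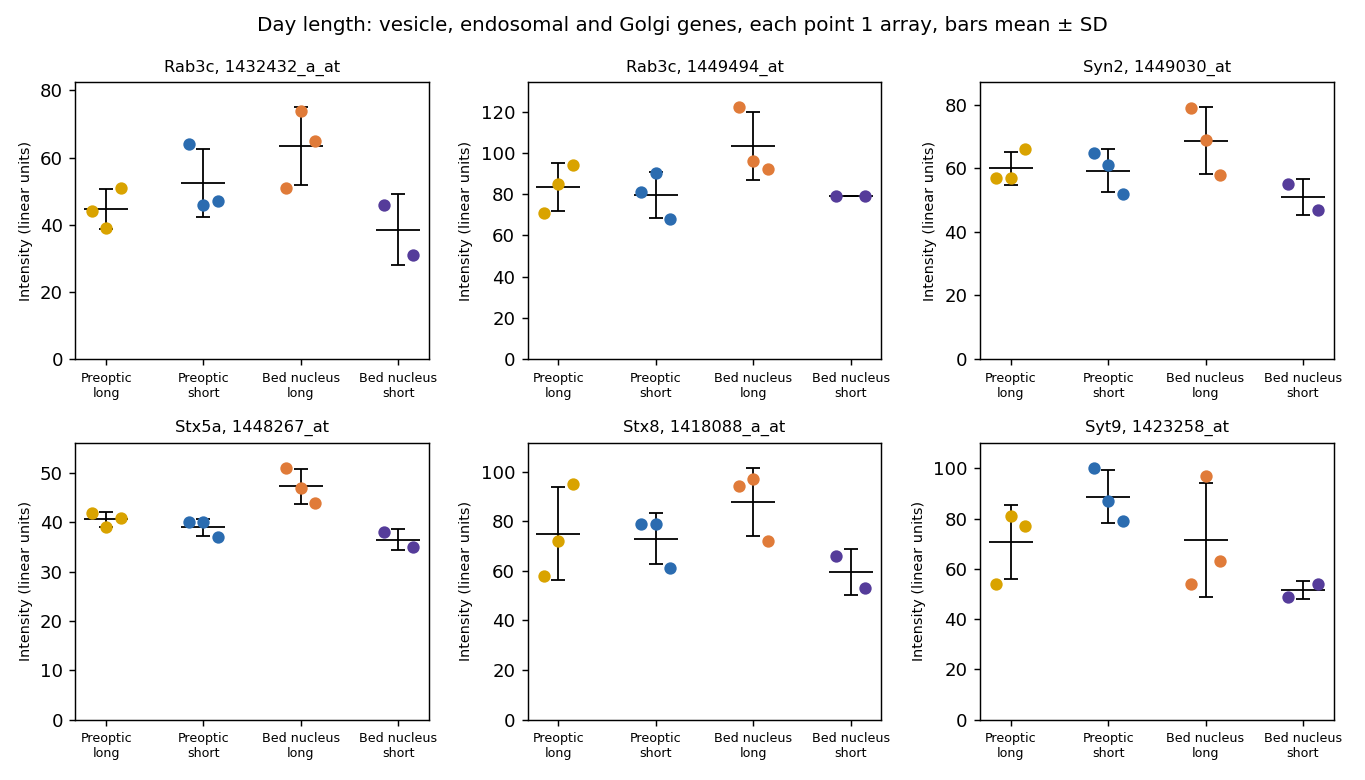
Normalised intensity (linear units, axis from 0) by group for Rab3c (2 probe sets), Syn2, Stx5a, Stx8 and Syt9. Each point is 1 array, with group mean and SD. In the bed nucleus the short-day points of the first 5 panels lie below all long-day points (Rab3c 31 and 46 against 51 to 74), and none of these differences passed the threshold.

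Averaged over both nuclei 0 of 108 probe sets passed for day length with limma (0.0133% of all did). An unadjusted p under 0.05 was found for 8 members (7.41%) and for 9.02% of all probe sets. The smallest p belonged to Snap47 (-0.29 ± 0.09, adjusted p = 0.408, limma), Syn2 in its dim probe set (0.29 ± 0.11), Stx5a (-0.22 ± 0.09) and Stx6 in 1460004_x_at (0.22 ± 0.10). Separate day length groups in the same direction in both nuclei were found for 0 members and for 119 of all 22626 probe sets (0.526%), a share too small to read the 0 against. Vamp4, of the trans-Golgi network, had them in opposite directions in 1434796_at: 19, 19 and 19 against 18, 15 and 17 in the preoptic area, and 16, 16 and 17 against 18 and 19 in the bed nucleus. These readings lie near the array median of 19. The share of all probe sets with groups apart in opposite directions was not counted, so nothing is read from it.

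The test of whether day length acted differently in the nuclei gave 0 of 108 members past the threshold with limma (0% of all), with 5 (4.63%) at an unadjusted p under 0.05, beside 8.34% of all probe sets. Subtracting the preoptic from the bed nucleus effect gave -0.95 ± 0.26 for Rab3c in 1432432_a_at (adjusted p = 0.45, limma), -0.77 ± 0.28 for Syt9, -0.51 ± 0.19 for Syt1 in 1421990_at and -0.51 ± 0.20 for Stx6 in 1431646_a_at. For Vamp4 it was 0.37 in 1434796_at (adjusted p = 0.607, limma), and 0.09 and -0.06 in its other probe sets. In the Syt9 readings above, the preoptic mean was higher in short days and the bed nucleus mean lower.

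Probe sets of a gene gave a view of how far single values can be read. Of the 30 genes with more than 1 probe set, 11 had all of them on the same side of 0 between the nuclei (36.7%, and 43% of 4956 genes in the whole table). For day length the counts were 7 of 30 in the preoptic area (23.3%, and 37.9% in the table) and 14 of 30 in the bed nucleus (46.7%, and 41.6%). These shares depend on how many probe sets a gene has. Among genes with exactly 2, the members gave 9 of 15 between the nuclei (60%, and 53.5% in the table), 6 of 15 for preoptic day length (40%, and 48.7%) and 8 of 15 for bed nucleus day length (53.3%, and 51.5%). Arrays did not contribute evenly either. Of the 54 members above the array median with a single lowest array, that array was bed nucleus short-day 5 in 12 (22.2%, and 15.9% over all such probe sets) and preoptic short-day 6 in 7 (13%, and 21.3%).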

How the data were processed

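Per the submitters' processing notes, the authors made the values with RMA version 3.4. What was deposited is 1 intensity per probe set and array, in linear whole numbers. The median is 19 on every array, as after normalisation between arrays and rounding. Detection calls were not used, and the number of arrays limits the precision. Of 22690 rows, 64 controls were set aside. Genes came from the platform annotation (some symbols are old): 20380 probe sets carry 1 symbol, 691 several and 1555 none.

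The log2 intensities (no pseudocount) of all 11 arrays were fitted with 4 group means in limma 3.58.1 (R 4.3.3, lmFit and eBayes, 7 residual and 12.9 prior degrees of freedom). The 7 comparisons were two-sided. No batch was given. Members and lists were chosen with earlier results of these data known. Named were probe sets that passed, the 4 with the smallest p in each comparison, core release genes, further probe sets of these genes and list genes that passed. Others in the text were chosen after their values were seen.

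Tested on simulated arrays of 22626 probe sets, with changes placed above the median, the fit found a log2 change of 1 in 98.1% of cases between nuclei, 84.3% for preoptic and 74.2% for bed nucleus day length. A change of 0.5 was found in 58.2%, 19.5% and 8.1%. Many probe sets were changed together in the simulation, which eases the Benjamini-Hochberg threshold. In the data 0 of all probe sets passed for preoptic and 10 for bed nucleus day length. The simulated shares for day length can therefore be too high for a single changed probe set. Alternatives were quantile normalisation, median centring, a trended and robust prior, leaving out dim probe sets, weights per array, the brightest probe set of each gene, a pseudocount of 16, subsets of arrays, each array left out and a block on the sample number.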

Additional observations from a re-analysis of the deposited data

How the results depend on the processing

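No member passed for day length (either nucleus, their mean or their difference) in any of the 75 counts under alternatives, nor for the nuclei in long days. For the nuclei averaged over day lengths the count of 3 members became 1 (Stx1a) with quantile normalisation and with a pseudocount of 16, and lay between 0 and 3 with single arrays left out, and the cause was not tested. The 0 came without the bed nucleus short-day array 5. Without both extreme Stx1a arrays (preoptic long-day 2 and bed nucleus short-day 5), an alternative chosen after seeing the data, it was 0 and Stx1a was at -0.70 (adjusted p = 0.0628, limma). Stx1a passed in 18 of 20 alternatives (adjusted p 0.00305 to 0.067, limma), Cplx1 in 7 of 19 for 1417746_at and 8 of 20 for 1448832_a_at. In short days the 1 member became 0 with the trended and robust prior, a pseudocount of 16 or only the short-day arrays, and 0 to 1 with single arrays left out. Stx6 in 1460004_x_at passed with array weights (adjusted p = 0.0456, limma) and without the bed nucleus long-day array 3 (0.0376). Of 2203 values of named probe sets under alternatives, 103 turned sign, each among values that had not passed and were at most 0.24 in size.

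Both nuclei share the sample numbers 1 to 5. Deviations of same-numbered arrays from their group means correlated at -0.03 to 0.07, and 2 of 5 bed nucleus arrays correlated best with their own number, so these values do not show the numbers to pair the arrays, and whether they share animals is not stated. With the replicate block, 3 members passed between the nuclei (Stx1a -0.95, adjusted p = 0.0148, limma), and 1 in short days, where Syt9 passed (-0.86, adjusted p = 0.0435, limma) and Stx1a did not (-1.25, adjusted p = 0.0693, limma).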
